A study of Drosophila melanogaster with 6 samples.

Results

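The DNA replication machinery was described in cells sorted from Drosophila embryos by the fluorescence of a TinD-GFP reporter. The list holds 42 genes that recognise replication origins, unwind DNA, copy it, supply its nucleotides or pack the new DNA into chromatin. A gene was taken where the platform annotation gave a probe set exactly its symbol, and the probe set with the highest mean over all arrays stood for it. This gave 37 genes, of 10844 genes represented in the series. Orc6, geminin, Mcm7, PolD1 and RnrS are not analysed here.

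There were 3 arrays of GFP-positive cells and 3 arrays of GFP-negative cells from the same kind of embryo. All embryos carried the TinD-GFP insertion and were staged between late stage 11 and early stage 12, so both groups share the reporter. Per the labels the insertion directs GFP to cardiac mesoderm that expresses Tinman, and the GFP-negative cells are the remainder of the dissociated embryo. The labels do not say whether replicates came from separate embryo collections, so p-values measure only the spread between these arrays, which may be technical.

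Before a cell divides, origin recognition proteins mark the places where copying can begin, and licensing proteins load the MCM helicase there. Activated helicases then unwind the DNA, RPA coats the single strands, and primase and polymerases copy them while held to the template by the PCNA clamp. In Drosophila embryos of this age most cells pass through the last of their early divisions, and some lineages stop dividing while others go on. Many replication genes are transcribed chiefly in cells that are about to copy their DNA or are copying it, under the control of E2F factors.

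Signals are log2 values of a probe set, and a difference is GFP-positive minus GFP-negative on that scale. Array medians of the log2 signal lay between 3.71 and 3.73, so a shift common to nearly all genes would be invisible here. Correlations between arrays (Pearson's r across probe sets, which are not independent) averaged 0.932 within and 0.930 between groups. The log2 signal of the actin control was 1.22 to 1.48 higher for its 3′ than for its 5′ probe set on GFP-positive arrays, and 1.28 to 1.36 higher on GFP-negative arrays. For the eIF-4a control this excess was larger, 2.13 to 2.19 on GFP-positive and 2.11 to 2.45 on GFP-negative arrays. Of 13 measured cardiac and dorsal mesoderm markers, 1 was higher in GFP-positive cells, Him, 0 were lower and 12 did not pass, and tin itself is not analysed here. For the heart genes lbe and lbl both group means lay below the background level of 2.44, the highest mean of control probe sets for other organisms, and the heart factor gene Hand was below it in GFP-negative cells and at 2.49 in GFP-positive cells. The markers ran both ways. The GFP-positive arrays lay above all GFP-negative arrays for Him, tup and eve, with differences of 0.56, 0.45 and 0.34, and below them for Doc1, Doc2, Doc3 and pnr, with differences of -0.21, -0.42, -0.36 and -0.29. The median difference of the 13 was 0.03. The GFP-positive arrays were higher for genes of somatic muscle formation, with 6 of 12 measured genes passing as higher and 0 as lower.

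The median difference of replication genes was below 0 in every sub-complex. Of the 37 genes, 36 had a difference below 0, against 51.5% of all probe sets and 53.7% of those with a mean log2 signal above 4. The median difference was -0.42, which is 74.6% of the GFP-negative level, and the median over 10844 genes was -0.02. In limma, with its trend and robust options, 11 of the 37 fell (Benjamini-Hochberg adjusted p under 0.05 over all probe sets), 0 rose and 26 did not pass. Over all probe sets 0.895% passed as lower and 1.54% as higher, and 1.89% passed as lower among those with a mean above 4, where 36 of the 37 genes lie. The 3 GFP-positive arrays lay below all 3 GFP-negative arrays in 29 of the 37 genes, in 0 the reverse held, and in 8 the groups overlapped. GFP-positive arrays lay below in 10.2% of all probe sets and in 16.7% of those with a mean above 4, and above in 9.47% of all. With a single prior variance limma called 0 of 13966 probe sets, and 26 of the 37 genes were lower at an unadjusted p under 0.05, where 4.79% of all probe sets were. The number of genes that fell was lower whichever array was left out. It was 4, 4 and 3 without GFP-positive replicate 1, 2 or 3, and 6, 5 and 4 without GFP-negative replicate 1, 2 or 3. In these fits 0.229% to 0.422% of all probe sets passed as lower. PCNA, Mcm2 and RPA2 passed whichever array was left out, while RPA1, RPA3 and Fen1 then passed in no case.

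**Figure D1:**
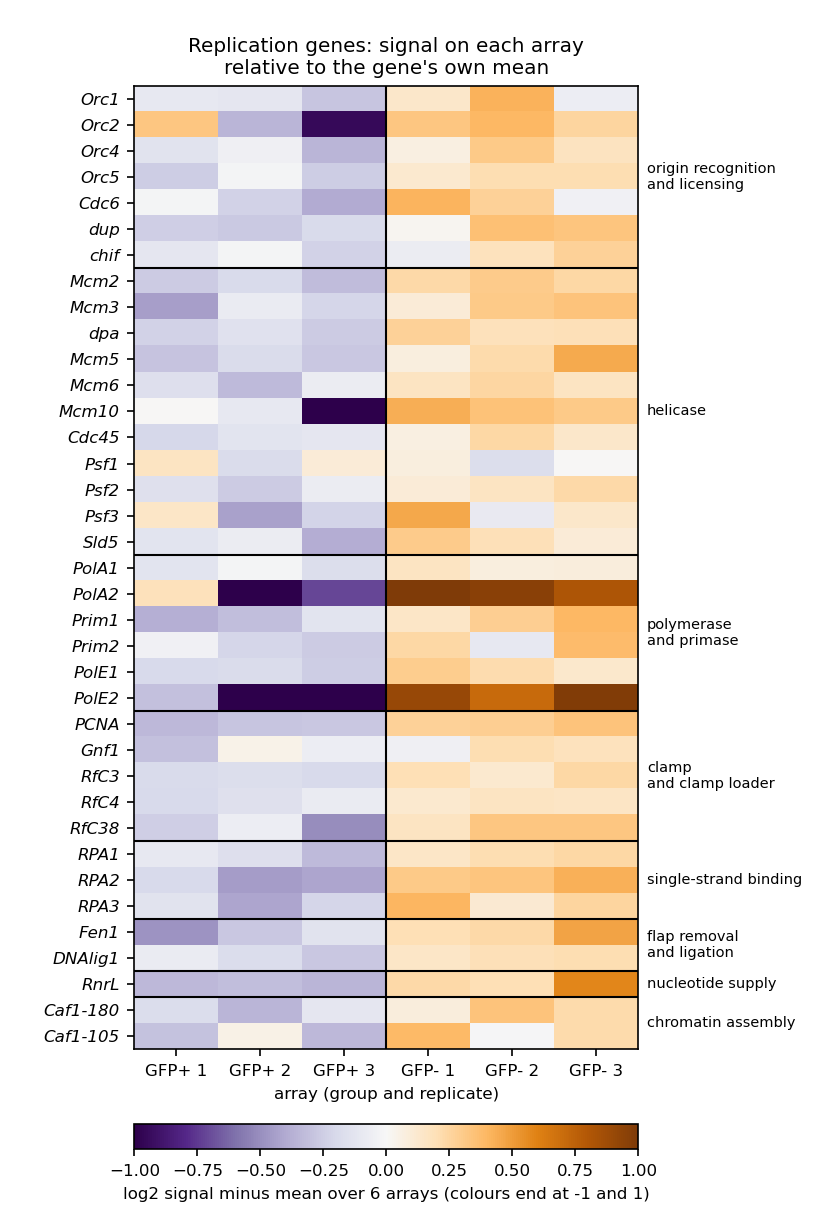
Log2 signal of each of the 37 replication genes (rows, grouped by sub-complex) on each of the 6 arrays (columns, GFP-positive replicates at the left), as the deviation from the gene's own mean over the arrays. GFP-positive arrays are mostly below the mean and GFP-negative arrays mostly above it, with wide swings in PolA2 and PolE2 and on GFP-positive replicate 3 in Mcm10 and Orc2.

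The direction was shared by the arrays of a group. The median deviation of the 37 genes from their own means was -0.19, -0.18 and -0.26 on GFP-positive replicates 1, 2 and 3, and 0.16, 0.23 and 0.23 on GFP-negative replicates 1, 2 and 3. On GFP-positive arrays 5, 2 and 1 of the genes lay above their own mean, and on GFP-negative arrays 35, 33 and 35 did. The deviation map of the genes by array shows that no array runs against its group.

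Origin recognition and licensing genes had a median difference of -0.36 over 7 measured genes, all below 0, and 1 of them fell and 6 did not pass. The gene that fell was dup, the Cdt1 protein that brings the MCM helicase to the origin. It had log2 signals of 7.97, 7.95 and 8.02 in GFP-positive cells, against 8.24, 8.58 and 8.55 in GFP-negative cells. The groups did not overlap, and the difference was -0.47 ± 0.09 (SE of the fit, adjusted p = 0.034). The origin recognition subunits Orc1, Orc4 and Orc5 were separated between groups without passing, with differences of -0.33, -0.36 and -0.35 and adjusted p-values of 0.32, 0.17 and 0.19. Orc2 differed by -0.65 ± 0.31 with overlap (adjusted p = 0.39), as its 3 GFP-positive signals spread over 4.71, 4.03 and 3.43 while GFP-negative signals were 4.71, 4.78 and 4.64. Cdc6, the ATPase that loads the helicase together with dup, differed by -0.43 ± 0.14 (adjusted p = 0.19). The smallest difference of the sub-complex was that of chif, the Dbf4-like partner of the Cdc7 kinase that fires licensed origins, at -0.25 ± 0.11 (adjusted p = 0.32).

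Helicase genes had a median difference of -0.39 over 11 genes, of which 3 fell and 8 did not pass. The 5 measured subunits of the MCM ring lay close together, from -0.51 to -0.38, with no overlap between groups in any of them. Mcm2 had log2 signals of 7.02, 7.09 and 6.96 in GFP-positive cells, against 7.51, 7.58 and 7.51 in GFP-negative cells. The lowest GFP-negative array was above every GFP-positive array, and the difference was -0.51 ± 0.07 (adjusted p = 0.0075). The Mcm4 gene of the fly, dpa, had 7.35, 7.43 and 7.31 in GFP-positive cells, against 7.84, 7.76 and 7.76 in GFP-negative cells, a difference of -0.43 ± 0.07 (adjusted p = 0.013). Mcm5 had 7.32, 7.43 and 7.34 in GFP-positive cells, against 7.69, 7.84 and 8.07 in GFP-negative cells, and differed by -0.50 ± 0.10 (adjusted p = 0.033). In Mcm5 the GFP-negative arrays are spread more widely than the GFP-positive ones, with replicate 3 the highest. Mcm3 and Mcm6 differed by a like amount, -0.50 ± 0.11 and -0.38 ± 0.09, but missed the threshold (adjusted p = 0.060 and 0.067).

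The remaining helicase genes encode factors that turn the loaded ring into a moving fork. Cdc45, which binds the ring with the GINS complex, differed by -0.30 ± 0.09, and Mcm10, an activator of the helicase, by -0.72 ± 0.28 (adjusted p = 0.15 and 0.27). For Mcm10 the log2 signals were 4.41, 4.30 and 3.41 in GFP-positive cells, against 4.84, 4.75 and 4.71 in GFP-negative cells, so its size leans on GFP-positive replicate 3. The GINS subunits Psf2, Psf3 and Sld5 differed by -0.33 ± 0.10, -0.34 ± 0.27 and -0.39 ± 0.16 without passing (adjusted p = 0.15, 0.65 and 0.30). The groups overlap in Psf3, which had a GFP-positive mean of 3.86, but not in Psf2 or Sld5. Psf1, their partner in the same complex, was the single replication gene with a difference above 0. Its log2 signals were 5.97, 5.63 and 5.91 in GFP-positive cells, against 5.89, 5.64 and 5.82 in GFP-negative cells. The groups overlap fully, and the difference of 0.05 ± 0.13 changed sign without GFP-positive replicate 1 (-0.013) and without GFP-negative replicate 2 (-0.016).

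**Figure D2:**
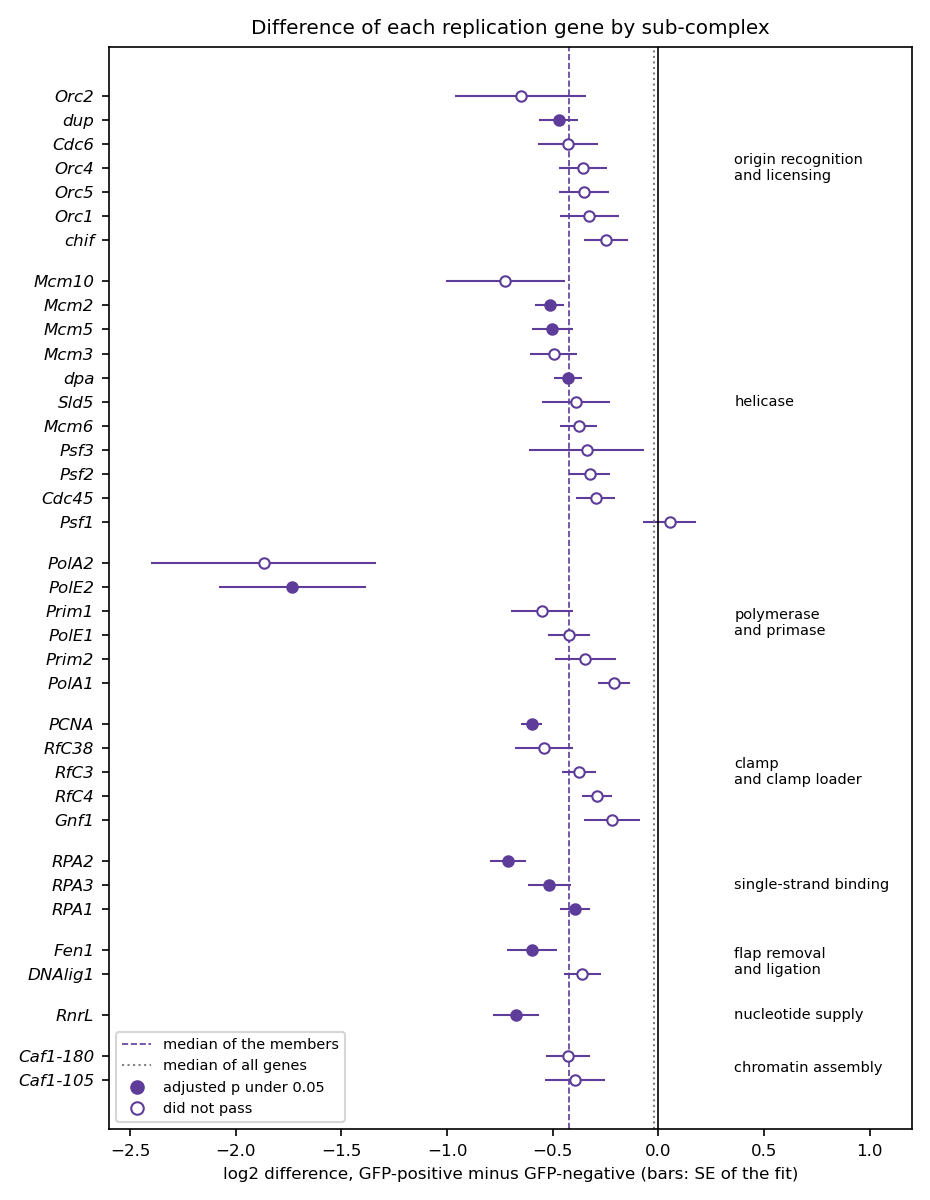
Difference in log2 signal, GFP-positive minus GFP-negative, of each replication gene (points, with bars for the SE of the fit), grouped by sub-complex, with filled points for the 11 genes with adjusted p under 0.05. All points but Psf1 lie left of 0, most near the median of -0.42 (dashed), and PolA2 and PolE2 stand far out with wide bars.

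Polymerase and primase genes had a median difference of -0.49 over 6 genes, all below 0, and covered a wide range, from -1.87 to -0.21. PolE2, a subunit of the leading-strand polymerase epsilon, had log2 signals of 3.29, 2.38 and 2.53 in GFP-positive cells, against 4.50, 4.31 and 4.59 in GFP-negative cells. It fell by 1.73 ± 0.35 (adjusted p = 0.040), but on 2 GFP-positive arrays its signal lay below the highest control for another organism on that array, so the size of the fall is not firm, and with a pseudocount of 32 on the linear scale the difference was -0.48. The catalytic subunit of the same enzyme, PolE1, was measured well above background, and there the difference was -0.42 ± 0.10 (adjusted p = 0.068), with no overlap between groups. PolA2, which encodes the accessory subunit of polymerase alpha and was singled out after its values were seen, showed the same limit on 1 GFP-positive array. Its log2 signals were 4.32, 1.87 and 3.43 in GFP-positive cells, against 5.17, 5.09 and 4.96 in GFP-negative cells. The GFP-positive arrays disagree by more than the groups differ, and the difference of -1.87 ± 0.53 did not pass (adjusted p = 0.13).

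PolA1, the catalytic subunit of polymerase alpha, had the smallest difference among polymerase genes. Its log2 signals were 6.82, 6.93 and 6.79 in GFP-positive cells, against 7.11, 7.03 and 7.03 in GFP-negative cells, with no overlap and a difference of -0.21 ± 0.07 (adjusted p = 0.22). The primase genes Prim1 and Prim2, whose products lay down the RNA primers that polymerase alpha extends, differed by -0.55 ± 0.15 and -0.35 ± 0.14 (adjusted p = 0.10 and 0.31). Both subunits are below 0, and the groups overlap in Prim2 but not in Prim1.

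PCNA, the ring that holds polymerases on DNA, had the smallest adjusted p of the replication genes. Its log2 signals were 8.55, 8.61 and 8.61 in GFP-positive cells, against 9.16, 9.17 and 9.23 in GFP-negative cells. The arrays of a group differ by less than 0.1 while the groups are 0.60 ± 0.05 apart (adjusted p = 8.8e-04), so the GFP-positive level was 66.0% of the GFP-negative level. The genes of the clamp loader, which opens the ring and sets it on DNA, were below 0 as well, and none of the 4 members passed. RfC38 differed by -0.54 ± 0.14, RfC3 by -0.38 ± 0.08, RfC4 by -0.29 ± 0.07 and Gnf1, the large subunit, by -0.22 ± 0.13, with adjusted p-values of 0.090, 0.053, 0.082 and 0.52. In Gnf1 the groups overlap.

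All 3 subunits of RPA, the complex that coats single-stranded DNA, fell. RPA1 had log2 signals of 7.99, 7.92 and 7.76 in GFP-positive cells, against 8.23, 8.30 and 8.33 in GFP-negative cells, and fell by 0.40 ± 0.07 (adjusted p = 0.028). RPA2 had 6.93, 6.68 and 6.72 in GFP-positive cells, against 7.44, 7.47 and 7.56 in GFP-negative cells, a fall of 0.71 ± 0.09 (adjusted p = 0.0052). RPA3 had 7.25, 6.97 and 7.17 in GFP-positive cells, against 7.79, 7.50 and 7.64 in GFP-negative cells, and fell by 0.52 ± 0.10 (adjusted p = 0.036). In no subunit do the groups overlap. A further probe set of RPA1 averaged 2.30 on GFP-positive and 2.46 on GFP-negative arrays, about the background level, and gives no reading of the gene. RPA1 is the chromosomal neighbour of Mcm2 in the reference annotation, so this pair of falls comes from adjoining genes.

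Among the genes that finish the lagging strand, supply nucleotides and assemble chromatin, Fen1 and RnrL fell and DNAlig1, Caf1-180 and Caf1-105 did not pass. Fen1, the nuclease that trims the flap left by a displaced primer, had log2 signals of 5.80, 6.0 and 6.14 in GFP-positive cells, against 6.48, 6.51 and 6.75 in GFP-negative cells, and fell by 0.60 ± 0.12 (adjusted p = 0.039). DNAlig1, the ligase that seals the remaining nick, differed by -0.36 ± 0.09 without overlap (adjusted p = 0.080). RnrL encodes the large subunit of the reductase that makes deoxynucleotides from ribonucleotides. It had log2 signals of 6.45, 6.48 and 6.43 in GFP-positive cells, against 7.02, 6.99 and 7.37 in GFP-negative cells. The GFP-positive arrays lie within 0.1 of each other, below all GFP-negative arrays, and RnrL fell by 0.67 ± 0.11 (adjusted p = 0.018). The genes of chromatin assembly factor 1, which places histones behind the fork, had differences of -0.43 ± 0.10 for Caf1-180 and -0.39 ± 0.14 for Caf1-105 (adjusted p = 0.075 and 0.23). Caf1-180 had log2 signals of 6.26, 6.08 and 6.33 in GFP-positive cells, against 6.52, 6.77 and 6.66 in GFP-negative cells, so its groups do not overlap.

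Other genes of replication and of the cell cycle were set beside these from lists of their own. Of 18 other fork and origin factors, 3 fell, 0 rose and 15 did not pass, with a median difference of -0.33. In this list 16 differences were below 0 and 2 above. The GFP-positive arrays lay below all GFP-negative arrays in 7 of the 18, against 10.2% of all probe sets, and above them in 0. CG8142, which encodes a further clamp loader subunit, fell by 0.55 ± 0.09, the histone chaperone gene asf1 by 0.41 ± 0.08, and the gene of the small subunit of chromatin assembly factor 1 by 0.30 ± 0.06 (adjusted p = 0.017, 0.046 and 0.029). Among those that did not pass, Ctf4, which ties the helicase to polymerase alpha, differed by -0.35 ± 0.16, and Top1, the topoisomerase that relieves twist ahead of the fork, by 0.07 ± 0.08 (adjusted p = 0.34 and 0.77).

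Nucleotide metabolism had 13 measured genes, of which 3 fell, 0 rose and 10 did not pass, with a median difference of -0.05. The gene dUTPase, whose product removes dUTP and yields the precursor of dTTP, had log2 signals of 8.06, 8.05 and 8.07 in GFP-positive cells, against 8.62, 8.65 and 8.70 in GFP-negative cells, and fell by 0.59 ± 0.05 (adjusted p = 0.0011). The deoxynucleoside kinase gene dnk fell by 0.51 ± 0.07, and Ts, the thymidylate synthase gene, by 0.62 ± 0.12 (adjusted p = 0.0075 and 0.029). The 10 genes that did not pass ran both ways. Among them were nmdyn-D7, at -0.47 ± 0.12, and Prat2, a gene of purine synthesis, at 1.68 ± 0.54 (adjusted p = 0.079 and 0.16), and the GFP-negative mean of Prat2, 1.25, lay below background. The purine synthesis genes Gart, Prat and Paics differed by -0.52 ± 0.27, -0.21 ± 0.08 and 0.11 ± 0.11, and r, the rudimentary gene of pyrimidine synthesis, by 0.34 ± 0.19.

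Regulators of S-phase entry had a median difference of -0.12 over 20 genes, and 1 fell, 0 rose and 19 did not pass. Cdk2, the kinase that starts S phase, had log2 signals of 7.87, 7.94 and 8.04 in GFP-positive cells, against 8.34, 8.33 and 8.26 in GFP-negative cells, and fell by 0.35 ± 0.06 (adjusted p = 0.027). Its cyclin, CycE, differed by 0.10 ± 0.09 with overlap (adjusted p = 0.72). E2f1, the activating E2F factor, differed by 0.28 ± 0.09 with the GFP-positive arrays above the GFP-negative ones, and its partner Dp by 0.04 ± 0.06 (adjusted p = 0.15 and 0.81). E2f2, Rbf2 and Rbf differed by -0.23, -0.33 and -0.13 (adjusted p = 0.28, 0.08 and 0.73). Of the 20 genes, 13 had a difference below 0 and 7 above it. The GFP-positive arrays lay below all GFP-negative arrays in 6 and above them in 2, against 10.2% and 9.47% of all probe sets. For mitotic regulators 2 of 24 genes fell, borr and aurB, 0 rose and 22 did not pass, and the median difference was -0.21. In this list 21 differences were below 0 and 3 above. The GFP-positive arrays lay below all GFP-negative arrays in 10 of the 24 and above them in 0. The difference between these lists and the replication genes was not tested.

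**Figure D3:**
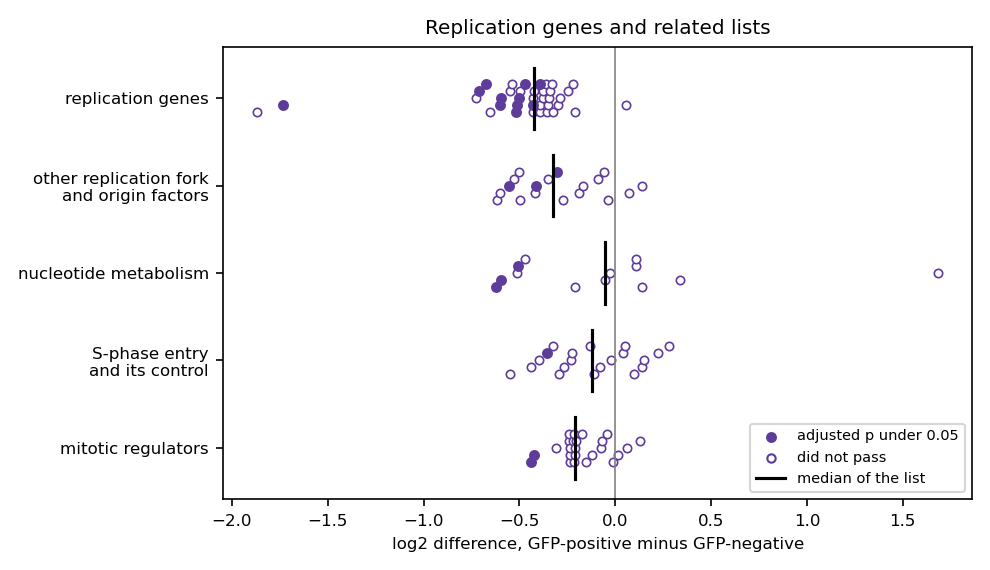
Difference in log2 signal, GFP-positive minus GFP-negative, of each gene (points, filled where adjusted p is under 0.05) for the 37 replication genes and 4 related lists, with a bar at each list's median. Medians lie at -0.42 for the replication genes, -0.33 for other fork and origin factors, -0.05 for nucleotide metabolism, -0.12 for S-phase entry and -0.21 for mitotic regulators.

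In these data the difference also moves with gene span, the length of the gene in the Release 6 annotation. Spearman's rho between span and difference across genes, which are not independent replicates, was 0.17 for the 10799 genes whose span is annotated, 0.43 for the 5169 among them with a mean log2 signal above 4, and 0.07 for the 37 replication genes. Over those 5169 genes the shortest-span decile had a median difference of -0.18 and the longest-span decile 0.24. The replication genes had a median span of 2509 bp, from 692 bp for Psf1 to 10199 bp for chif, against a median of 2864 bp over genes with a mean above 4 and 2385 bp over all genes. The deciles around their median span had median differences of -0.09, -0.08 and -0.05. A smooth trend of the difference on span was fitted over 12394 probe sets with a known span, dim ones included. Its lowest value at a replication gene was -0.09, so at short spans it was shallower than the decile medians above. Of the 37 genes, 36 lay below this trend. With that trend removed their median difference was -0.38, and 6 fell, namely dup, Mcm2, dpa, PCNA, RPA2 and RnrL. Among the same genes without the adjustment 11 fell. Across all probe sets with a known span, calls of lower genes dropped by the same step to 48, against 107 without it.

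**Figure D4:**
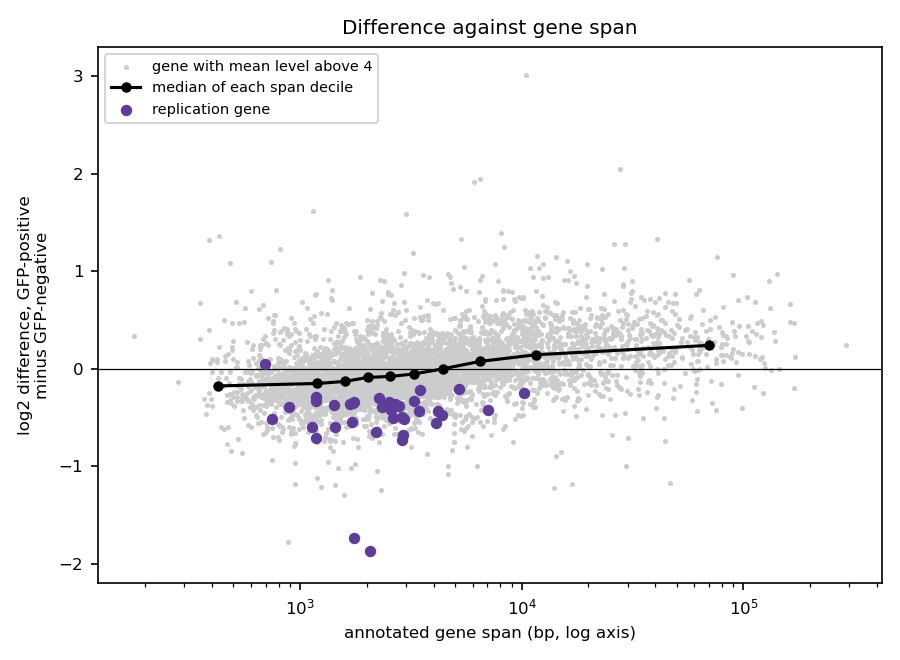
Difference in log2 signal, GFP-positive minus GFP-negative, against annotated gene span in bp (log axis), for 5169 genes with a mean log2 signal above 4 (grey), the medians of their span deciles (black line) and the 37 replication genes (purple). The line climbs to 0.24 at the longest spans from -0.18 at the shortest, and every replication gene but Psf1 lies below it.

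Markers of several other cell types were higher in summed signal on GFP-positive arrays. Within every list but that of somatic muscle, single genes ran both ways. The summed linear signal of the 12 somatic muscle genes was 997 to 1118 on GFP-positive and 643 to 693 on GFP-negative arrays, and 12 of 12 differences were above 0. These genes are long, with a median span of 26032 bp. For 13 hemocyte genes it was 876 to 927 on GFP-positive and 679 to 713 on GFP-negative arrays, with 9 differences above 0 and 2 genes, Ppn and vkg, passing as higher. The hemocyte genes Hml, lz and NimC1 lay below the background level in both groups. Genes of the hemocyte list are long as well, with a median span of 13948 bp. For 14 neuroblast genes, which mark the dividing stem cells of the nervous system, the sums were 2032 to 2065 on GFP-positive and 1890 to 1988 on GFP-negative arrays, with a median difference of 0.06, and 1 gene, hb, passed as higher. Of the 14 differences, 8 were above 0 and 6 below. The GFP-positive arrays lay above all GFP-negative arrays for hb, sna and ase (0.48, 0.21 and 0.20), and below them for dpn and l(1)sc (-0.29 and -0.10). The sums of 7 midgut and visceral mesoderm genes were 401 to 439 on GFP-positive and 369 to 399 on GFP-negative arrays, and bap passed as higher. In this list bap, bin, jeb and Alk differed by 0.42, 0.26, 0.18 and 0.23, and hkb, fkh and GATAe by -0.27, -0.44 and -0.34. For hkb and fkh the GFP-positive arrays lay below all GFP-negative arrays. For 7 germline genes the sums were 274 to 287 on GFP-positive and 233 to 240 on GFP-negative arrays, where tud passed as higher. The germline gene vas lay below background in both groups, and aub and ovo differed by -0.12 and -0.03. For 5 salivary gland genes the sums were 101 to 114 on GFP-positive and 67.8 to 87.8 on GFP-negative arrays, where Sgs7 passed as higher, at 1.32. Sgs7 had the highest GFP-positive mean of the 5, a log2 signal of 5.53 against 4.21 in GFP-negative cells. The higher sum therefore leans on this 1 gene. The other 4 were PH4alphaSG2 at 1.15, with a GFP-negative mean of 2.11, below background, eyg at 0.12, sage at 0.07 and fkh at -0.44. Of these only fkh was separated between groups, with the GFP-positive arrays below. Sums of 6 epidermis genes, with a median span of 13504 bp, overlapped, at 582 to 625 on GFP-positive and 505 to 603 on GFP-negative arrays, and 0 passed. The part of these cell types in the level of replication genes was not tested. In sorted bulk samples, fewer cells that copy DNA and less replication RNA in each cell cannot be told apart.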

How the data were processed

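Cells sorted from TinD-GFP embryos were measured on 6 single-colour Affymetrix arrays, 3 per group by title. For each array the deposited table gives log2 signals by probe set. The package affy is named in the submitters' processing notes. How it was used (background, scaling, summary) was not given in the sources used here. Base 2 was inferred from the highest value, 12.9. The values were used without rescaling. The number of arrays limits precision.

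After removal of 44 controls, 13966 of 14010 probe sets were tested. The highest mean of 23 controls for other organisms, 2.44, served as background; on single arrays their highest value was 2.58 to 3.55. Of these, 12443 had 1 gene in the platform annotation, 327 several and 1196 none. Of those with 1 gene, 12394 matched RefSeq (fly Release 6) by Entrez identifier.

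The fit over all probe sets used limma 3.58.1 under R 4.3.3 (eBayes with trend and robust options after lmFit, 2-sided, Benjamini-Hochberg, threshold 0.05) and was checked on simulated data. The members, lists and this fit were chosen with earlier results of these data known, among them that the fit with a single prior variance calls no probe set. Values per array were given for members that passed, for the member with the highest mean per sub-complex, and for any separated upward. From each related list up to 4 passing genes were named, and the other genes named there, with the values per array of PolA2, Orc2, Mcm10 and Psf1, were added after they were seen. Alternatives were other prior variances, a replicate block, quantile or median scaling, array weights, a dim filter, a pseudocount, the mean of probe sets, span adjustments, a fold minimum and leaving out each array. Replicate numbers were not used to pair the arrays in the main fit. The deviations of same-numbered arrays from their group means correlated at 0.060, 0.012 and 0.024, and those of differently numbered arrays at -0.047 to 0.019. Correlations this small do not settle whether the numbers pair the arrays. The log2 signal of an 18S rRNA control was highest on replicate 3 of both groups, 7.57 on the GFP-positive and 7.82 on the GFP-negative array. On the other arrays it was 5.05 to 6.10. Whether same-numbered arrays share a batch was not tested. Promoter motifs and sequences are not analysed here.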

Additional observations from a re-analysis of the deposited data

How the results depend on the processing

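The count of replication genes that fell was 11 as reported, where 0.895% of the probe sets tested passed as lower. It was 0 with a single prior variance (limma, smallest adjusted p over all probe sets 0.112). Without the dimmest 40% of probe sets it was 20, where 8379 were tested and 3.17% of them passed as lower. It was 6 with the span adjustment (0.387% of those tested) and 6 with an adjustment for span and level chosen after seeing the data (0.379%). With at least a 1.5-fold change required it was 5 (0.222%). Without 1 array it was 3 to 6 (0.229% to 0.422% of those tested). With a replicate block it was 11 (1.13% of those tested), and 9 with the block and the span adjustment (0.492%). None rose under any of these settings. With the block PolE2 no longer passed (adjusted p = 0.055) and Mcm3 did (0.021). GFP-positive replicate 2 correlated no better with its own number (0.012) than with GFP-negative replicate 3 (0.019). PCNA, Mcm2 and RPA2 were the 3 that passed without any 1 array.

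The median difference of the 37 replication genes, -0.42, was -0.27 with a pseudocount of 32, -0.37 with the adjustment for span and level, and -0.43 to -0.37 without 1 array. With the pseudocount the sub-complex medians were -0.29 for chromatin assembly, -0.27 for the clamp and its loader, -0.34 for flap removal and ligation, -0.27 for the helicase, -0.24 for origins and -0.27 for polymerases. A pseudocount shrinks differences by construction. With the span adjustment the clamp median was -0.29 and the helicase median -0.34, also with the replicate block. With the adjustment for span and level the medians were -0.26 for the clamp, -0.39 for flap removal and ligation, -0.33 for the helicase and -0.36 for single-strand binding. The helicase median was -0.45 to -0.39 without 1 array. Psf1, at 0.05, was -0.016 to 0.16 without 1 array, below 0 when GFP-positive replicate 1 (-0.013) or replicate 2 of the GFP-negative arrays (-0.016) was left out. Where no construction is named, the cause was not tested. Genes with signals near background, PolE2 and PolA2, are limited by signal: across settings their differences ran from -2.01 to -0.48 and from -2.42 to -0.61.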

Other observations

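The genes that flank the replication genes on the chromosome in the reference annotation were read as well, a choice made after the data were seen. Of 61 flanking genes on the array that are not replication genes themselves, 31 had a difference below 0, and the median was -0.03. In limma 1 of them fell, ATPsynCF6 beside PolE1, with a difference of -0.38 (adjusted p = 0.014). Drat, which flanks Orc1, rose by 0.57 (adjusted p = 0.0040), and CG14687, which flanks Mcm5, rose by 1.10 (adjusted p = 0.025).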
